A study of Rattus norvegicus with 30 samples.

Results

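The genes described here encode enzymes that write or erase acetyl and methyl groups on histones and other proteins, and methyl groups on DNA. Members were taken by gene symbol from the annotation of the array. They are the symbols that start with Kat, Kdm, Kmt, Setd, Sirt, Prmt, Suv39h, Dnmt or Tet followed by a digit, together with Ep300, Crebbp, Ezh1, Ezh2, Ehmt1 and Ehmt2, on probesets with 1 gene symbol. This gave 63 of the 14217 genes with a single symbol, and 56 of the 63 passed a filter on low signal and were tested. By role they were 9 lysine acetyltransferases, 20 lysine methyltransferases, 7 arginine methyltransferases, 15 lysine demethylases, 6 sirtuins, 3 DNA methyltransferases and 3 DNA hydroxylases. Sirt1, Prmt1 and Suv39h1 had no probeset with a single symbol and were not analysed here.

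Frozen hepatocytes of male Sprague Dawley rats from a commercial supplier were thawed, plated on collagen under Matrigel, and dosed on day 3 of culture. The 6 groups were water at 24 h, 0.5 mM sodium valproate at 24 h, 10 mM sodium valproate at 24 h, and the same 3 conditions at 48 h, with 5 wells in each. Water was the vehicle of every dose, and each time had its own water wells. Sodium valproate is an antiepileptic drug, the salt of a branched fatty acid, and inhibits histone deacetylases. The labels call the wells independent cultures, but the labels do not say how many donor animals or plates they came from, so the p-values measure only the spread between wells, which may be technical. The comparisons ask how the RNA of these enzymes differed between valproate and water at each dose and time.

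Histone acetyltransferases use acetyl-CoA to acetylate lysines, which loosens chromatin and recruits bromodomain proteins, and deacetylases remove the mark. Methyltransferases of the SET family use S-adenosylmethionine to mark lysines for activation or for silencing, and demethylases use flavin or oxoglutarate, iron and oxygen to remove those marks. Sirtuins are NAD-dependent deacylases that are not targets of valproate-type inhibitors, and Tet enzymes oxidise the methyl group that Dnmt enzymes place on cytosine. In liver these enzymes take their cofactors from intermediary metabolism and act on the genes that define the hepatocyte.

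Promoter windows from RefSeq on the build GRCr8 cover 250 bases before to 50 bases after the start of each gene, and 53 of the 63 members had one. The 5 windows below are shown because their genes are among those with the larger rises (Ezh2, Kmt5c and Tet2) and falls (Kat2b and Setd6) at 10 mM, to which the results return. They lie at chr4:77687134-77687433 on the minus strand for Ezh2, chr1:78135882-78136181 on the minus strand for Kmt5c, chr2:224746137-224746436 on the minus strand for Tet2, chr9:6798895-6799194 on the plus strand for Kat2b and chr19:9356466-9356765 on the minus strand for Setd6. Each is written 5′ to 3′ on the strand of its gene, and capitals mark every match on either strand to the letters GGGCGG (SP1), CCAAT, TTTCCCGC or TTTGGCGC (E2F) and CCGGAAG (ETS). No matches overlapped in these windows.
Ezh2: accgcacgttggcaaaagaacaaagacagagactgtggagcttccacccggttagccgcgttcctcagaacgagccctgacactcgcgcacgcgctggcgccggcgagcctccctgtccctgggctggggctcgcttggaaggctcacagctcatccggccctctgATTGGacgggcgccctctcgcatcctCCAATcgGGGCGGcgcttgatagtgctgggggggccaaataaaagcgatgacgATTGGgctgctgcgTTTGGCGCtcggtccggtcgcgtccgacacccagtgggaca
Kmt5c: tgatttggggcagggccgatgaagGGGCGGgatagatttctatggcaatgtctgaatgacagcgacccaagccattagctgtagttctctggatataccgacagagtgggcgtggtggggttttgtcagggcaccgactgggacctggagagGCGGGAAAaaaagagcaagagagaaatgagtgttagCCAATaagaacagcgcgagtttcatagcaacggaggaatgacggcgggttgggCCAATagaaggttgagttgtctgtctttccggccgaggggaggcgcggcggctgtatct
Tet2: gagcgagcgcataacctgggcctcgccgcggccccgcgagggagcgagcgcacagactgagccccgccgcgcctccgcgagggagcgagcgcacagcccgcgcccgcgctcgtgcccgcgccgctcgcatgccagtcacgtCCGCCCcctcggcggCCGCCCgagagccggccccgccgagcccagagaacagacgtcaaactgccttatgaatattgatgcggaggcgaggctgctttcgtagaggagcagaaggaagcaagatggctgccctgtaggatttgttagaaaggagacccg
Kat2b: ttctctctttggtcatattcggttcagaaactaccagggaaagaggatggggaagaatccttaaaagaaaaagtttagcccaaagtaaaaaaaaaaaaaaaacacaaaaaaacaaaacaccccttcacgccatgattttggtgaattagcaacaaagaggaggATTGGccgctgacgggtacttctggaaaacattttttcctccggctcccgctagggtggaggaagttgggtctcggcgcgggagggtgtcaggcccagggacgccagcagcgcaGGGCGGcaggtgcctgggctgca
Setd6: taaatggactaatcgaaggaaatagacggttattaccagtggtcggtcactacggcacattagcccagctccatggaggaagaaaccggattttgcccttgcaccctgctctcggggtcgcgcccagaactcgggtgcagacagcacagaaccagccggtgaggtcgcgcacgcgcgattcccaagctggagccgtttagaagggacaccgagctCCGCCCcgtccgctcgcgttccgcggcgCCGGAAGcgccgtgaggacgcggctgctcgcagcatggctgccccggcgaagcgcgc

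Ezh2 and Kmt5c, the genes with the largest rises at 10 mM and 48 h, were the 2 members of 53 whose window held the E2F letters, or 3.77%, against 1.53% of all 27457 windows. Kmt5c was not called at 24 h, and of the 13 members with a window that rose at both times 1 held these letters. The CCAAT letters stood 3 times in the window of Ezh2, 2 times in that of Kmt5c and once in that of Kat2b. The SP1 letters stood in 66.0% of the members' windows and in 34.9% of all windows. They stood in 8 of the 13 members with a window that rose at 10 mM at both times, and in 8 of the 9 that fell at both times. The median number of CpG dinucleotides per window was 22 for the members and 7 for all windows, and TATAAA was found in 1.89% against 14.3%. These are matches of letters and do not show that a factor binds there.

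RNA was hybridised to 1 array per culture, and values are MAS5 signals scaled by the authors to a common level on each array. Changes are differences of log2(signal + 16) with the standard error of the fit, positive where the first-named group was higher. A gene was called at an adjusted p under 0.05 (limma, Benjamini-Hochberg over 21729 probesets, 30 arrays in 1 fit). Rose and fell are used of called genes only. Arrays of a group correlated at a median of 0.960, and no pair of arrays exceeded 0.967. A sign of RNA quality, the 3'/5' ratio of the actin control probesets on the log2 scale, was between 2.23 and 2.77 in 3 arrays, of which 1 was water at 24 h and 2 were 0.5 mM at 48 h. All 9 hepatocyte markers with a probeset passed the filter, and at 10 mM 7 fell and 0 rose at 24 h, while 4 fell and 2 rose at 48 h. Hnf4a, a master regulator of the hepatocyte, changed by -0.79 ± 0.10 at 24 h and by 0.42 ± 0.10 at 48 h. The summed signal of these markers was 357630 to 431902 at 10 mM and 427146 to 552293 in water at 24 h, and 397465 to 440489 at 10 mM and 425765 to 482756 in water at 48 h. Of 7 tested Kupffer cell and macrophage markers, 5 fell and 0 rose at 10 mM at each time, with a summed signal of 6389 to 7756 at 10 mM and 20519 to 24509 in water at 24 h, and 5205 to 10151 at 10 mM and 17866 to 20024 in water at 48 h. Of the tested stellate, endothelial, biliary and lymphocyte markers (6, 5, 1 and 2), at most 2 of a list fell and at most 1 rose at 10 mM. The 1 biliary marker, Epcam, fell by 0.23 at 24 h and 1.03 at 48 h. Summed stellate signals were 2862 to 3285 at 10 mM and 3749 to 4332 in water at 24 h. At 48 h they were 2873 to 3567 and 3928 to 4560. Summed biliary signals at 48 h were 5046 to 6635 at 10 mM and 10473 to 12229 in water. The biliary sums at 24 h and the endothelial and lymphocyte sums overlapped with water. No marker was listed at 0. Fewer cells of a type and less RNA per cell cannot be told apart in bulk RNA, and the part of these shifts in the changes below was not tested.

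At 10 mM members rose and fell in similar numbers at 24 h and more of them rose than fell at 48 h. At 24 h, 18 of 56 tested members rose and 19 fell, where 31.1% of all tested genes rose and 25% fell. The share of members called was 32.1% higher, near that of all genes, and 33.9% lower. The acetyltransferases, lysine methyltransferases, demethylases and sirtuins held both rises and falls at both times, the arginine methyltransferases held both only at 24 h, and no tested DNA hydroxylase or DNA methyltransferase fell. At 48 h, 18 rose and 11 fell, against 27.6% and 22.3% of all tested genes. The 10 mM and water arrays did not overlap for 18 members with higher and 13 with lower signals at 24 h (25.3% and 20.3% of all genes), and for 13 and 7 at 48 h (23.9% and 18.4%). The median change of the members was 0.03 at 24 h and 0.09 at 48 h, beside 0.07 and 0.03 over all tested genes. Without the 3 arrays of high actin ratio, 19 members rose and 14 fell at 24 h, and 21 rose and 11 fell at 48 h. In that fit 31.9% of all tested genes rose and 24.3% fell at 24 h, and 29.2% rose and 23.6% fell at 48 h.

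**Figure D1:**
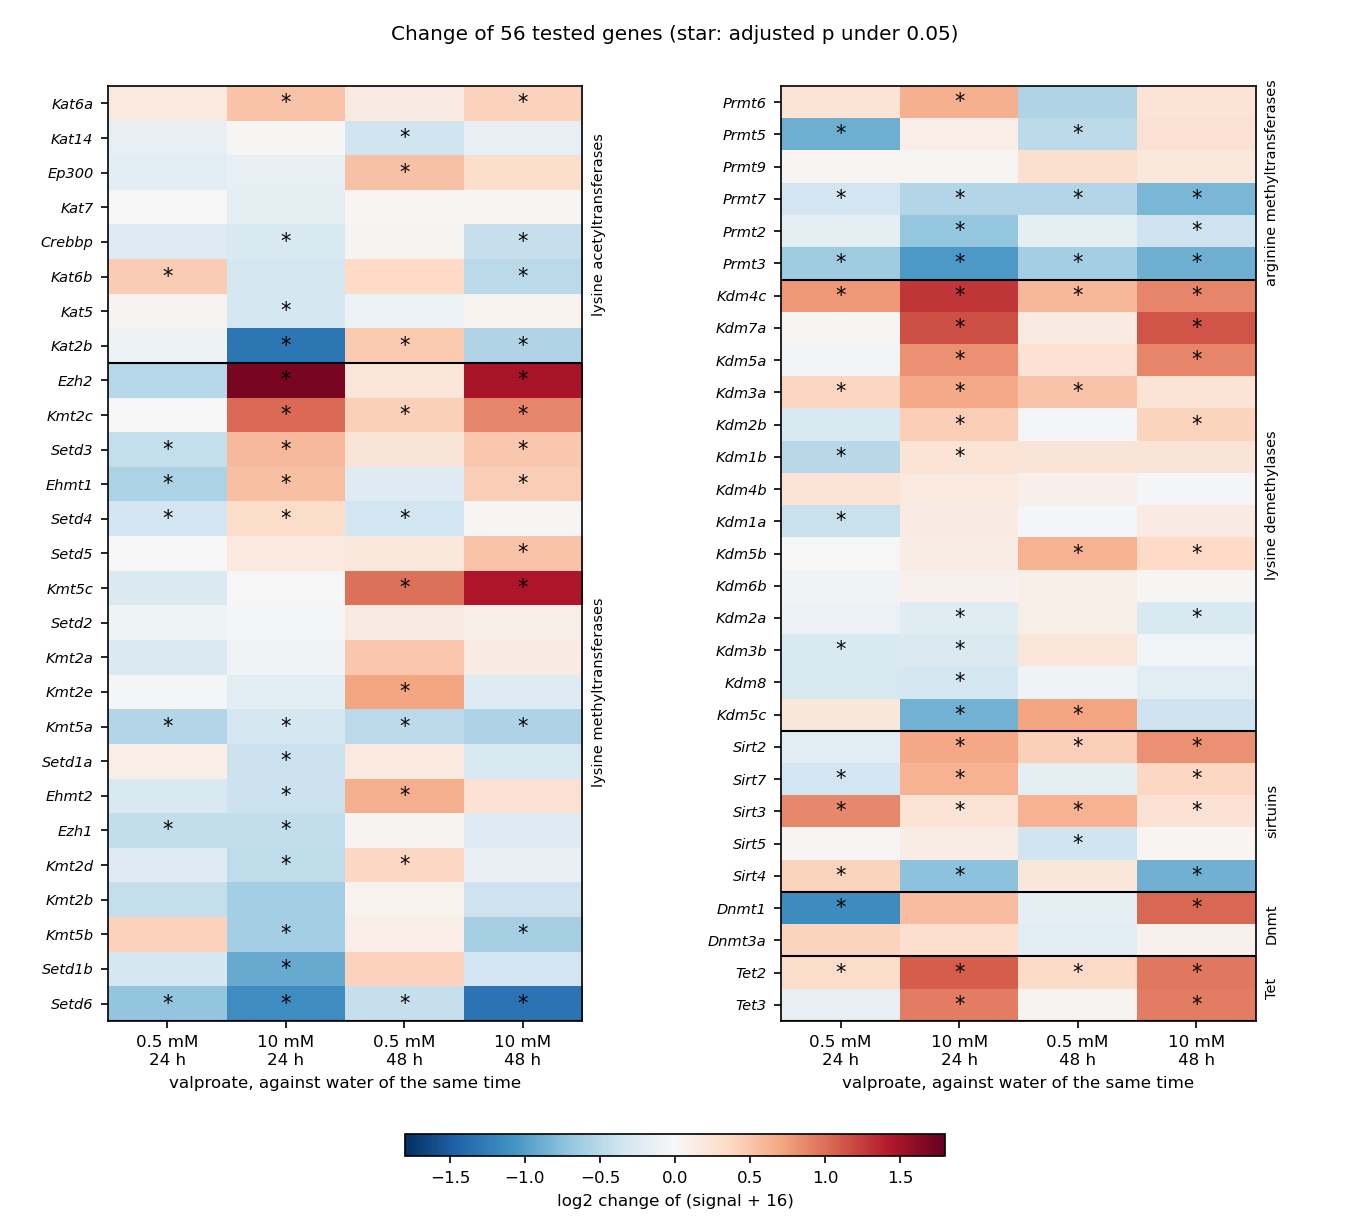
Log2 change of (signal + 16) of the 56 tested members at 0.5 mM and 10 mM valproate against water of the same time, as colour, with members grouped by role and ordered by their change at 10 mM and 24 h. Stars mark changes with an adjusted p under 0.05. At 10 mM and 24 h, 18 members are starred in red and 19 in blue, and Setd6, Prmt3, Prmt7 and Kmt5a are blue and starred in all 4 columns.

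Among the lysine acetyltransferases, 1 of 8 tested rose and 3 fell at each time at 10 mM. Kat2b, also named PCAF, is the catalytic acetyltransferase of SAGA-type coactivator complexes. Its signals at 24 h were 2768, 2516, 2436, 2543 and 2532 at 10 mM, against 7076, 6243, 6679, 6000 and 5579 in water. At 48 h they were 3610, 3815, 3364, 3445 and 3672 at 10 mM, against 5868, 5713, 4837, 5058 and 4730 in water. Every 10 mM array lay below every water array at both times. The change was -1.29 ± 0.09 at 24 h (adjusted p 1.3e-13, limma) and -0.54 ± 0.09 at 48 h (7.51e-06). Kat6a and Kat6b, paralogous MYST-family enzymes that acetylate histone H3, differed in direction. Kat6a rose by 0.52 ± 0.13 at 24 h and 0.42 ± 0.13 at 48 h, while Kat6b fell at 48 h (-0.49 ± 0.15) and had a change of -0.31 ± 0.15 at 24 h that was not called (adjusted p 0.0872). Kat5, the catalytic subunit of the NuA4/TIP60 complex, fell at 24 h (-0.31 ± 0.12) and had a change of 0.07 ± 0.12 at 48 h that was not called, and the difference between the times was not called (adjusted p 0.176).

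The general coactivators Crebbp and Ep300, which acetylate histone H3 at enhancers, had small changes. Crebbp had signals of 1968 to 2223 at 10 mM, with a median of 2139, and 2296 to 2964 in water, with a median of 2461, at 24 h, and the groups did not overlap. It fell by 0.27 ± 0.10 at 24 h and by 0.41 ± 0.10 at 48 h on the log2 scale. The call at 24 h was lost without the fifth water array (-0.22), and the fall at 48 h did not hold for the average of its 2 tested probesets, which changed by -0.07. Ep300 changed by -0.15 ± 0.13 at 24 h and 0.31 ± 0.13 at 48 h, and neither was called (adjusted p 0.351 and 0.0506). Without the 3 arrays of high actin ratio its change at 48 h was called (adjusted p 0.0369). The second tested probeset of Ep300 changed by -0.14 at 48 h and was not called.

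Among the lysine methyltransferases, 5 of 19 tested rose and 8 fell at 24 h, and 6 rose and 3 fell at 48 h. Ezh2, the catalytic subunit of Polycomb repressive complex PRC2 that methylates histone H3 for silencing, had the largest rise of any member at both times. Its signals at 24 h were 1234, 1274, 1087, 1343 and 816 at 10 mM, against 423, 309, 443, 300 and 239 in water. At 48 h they were 793, 683, 825, 934 and 1059 at 10 mM, against 198, 307, 378, 325 and 284 in water. The groups did not overlap at either time. The change was 1.71 ± 0.23 (adjusted p 1.71e-07) at 24 h and 1.49 ± 0.23 (2.77e-06) at 48 h. Its second tested probeset rose as well, by 1.55 at 24 h and 0.72 at 48 h. Ezh1, the other catalytic subunit of that complex and the one typical of non-dividing cells, had signals of 1818 to 1982 at 10 mM and 2326 to 3097 in water at 24 h. It fell by 0.44 ± 0.10 on the log2 scale, and this call was lost for the mean of its 2 probesets (-0.19).

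Kmt2c, which with Kmt2d monomethylates histone H3 at enhancers, was separated from water in the same way. Its 10 mM signals were 3998, 3837, 4147, 3816 and 3994, against 2319, 1792, 1896, 2097 and 1663 in water at 24 h. It rose by 1.02 ± 0.13 at 24 h (adjusted p 1.11e-07) and 0.88 ± 0.13 at 48 h (2.28e-06). A second tested probeset of Kmt2c changed by 0.70 at 24 h and 0.20 at 48 h and was not called at either time. Kmt2d had signals of 1671 to 1854 at 10 mM and 2105 to 2774 in water at 24 h, and fell by 0.46 ± 0.10, while its change at 48 h was -0.14 ± 0.10 (adjusted p 0.326). A second probeset of Kmt2d changed by 0.39 at 24 h and was not called. Setd1a and Setd1b, the catalytic subunits of the SET1 complexes that trimethylate histone H3 at promoters, fell at 24 h by 0.39 ± 0.15 and 0.91 ± 0.21. Neither was called at 48 h (-0.29 ± 0.15 and -0.34 ± 0.21).

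Setd6, which methylates the RelA subunit of NF-κB, had the largest fall of any member at 48 h. Its signals at 24 h were 2062, 2116, 1510, 1860 and 1516 at 10 mM, against 3745, 4135, 4294, 3892 and 3478 in water. At 48 h they were 1289, 1707, 1270, 1192 and 1311 at 10 mM, against 3127, 3809, 3520, 3394 and 3137 in water. All 10 mM arrays were below all water arrays. The change was -1.11 ± 0.12 (adjusted p 1.78e-09) at 24 h and -1.32 ± 0.12 (6.78e-11) at 48 h. Setd3, an actin histidine methyltransferase, rose by 0.59 ± 0.09 and 0.49 ± 0.09 at 24 h and 48 h. Its second tested probeset rose by 0.45 at 24 h, and its change of 0.11 at 48 h was not called. Ehmt1, which with Ehmt2 mono- and dimethylates histone H3 for silencing, rose by 0.54 ± 0.17 at 24 h (adjusted p 0.00711) and 0.45 ± 0.17 at 48 h (0.0307), the second of which was not called with quantile normalization (0.34). Ehmt2 fell by 0.39 ± 0.15 at 24 h (adjusted p 0.0321), and this call was lost without the 3 arrays of high actin ratio (-0.30). With 1 array of the comparison left out at a time, Ehmt1 at 48 h and Ehmt2 at 24 h were each called in 5 of 10 fits.

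The 3 tested enzymes that methylate histone H4 on the same lysine did not move as a set. Kmt5a, which places the first methyl group, fell by 0.32 ± 0.13 at 24 h and by 0.56 ± 0.13 at 48 h. Kmt5b fell by 0.62 ± 0.25 (adjusted p 0.0369) and by 0.60 ± 0.25 (0.0473), both calls were lost with no filter on signal, and with 1 array left out at a time they held in 5 and 4 of 10 fits. Kmt5c, dim on this array, had signals at 48 h of 278, 185, 335, 250 and 233 at 10 mM, against 41, 189, 75, 163 and 31 in water. Only the second 10 mM array and the second water array crossed. It rose by 1.45 ± 0.36 at 48 h (adjusted p 0.00133), but had a change of 0.005 ± 0.36 at 24 h, when water arrays ranged from 188 to 401. In water itself it fell by 1.40 ± 0.36 between 24 h and 48 h (adjusted p 0.0133), and the difference of the 10 mM effect between the times, 1.45 ± 0.51, was not called (adjusted p 0.0657).

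**Figure D2:**
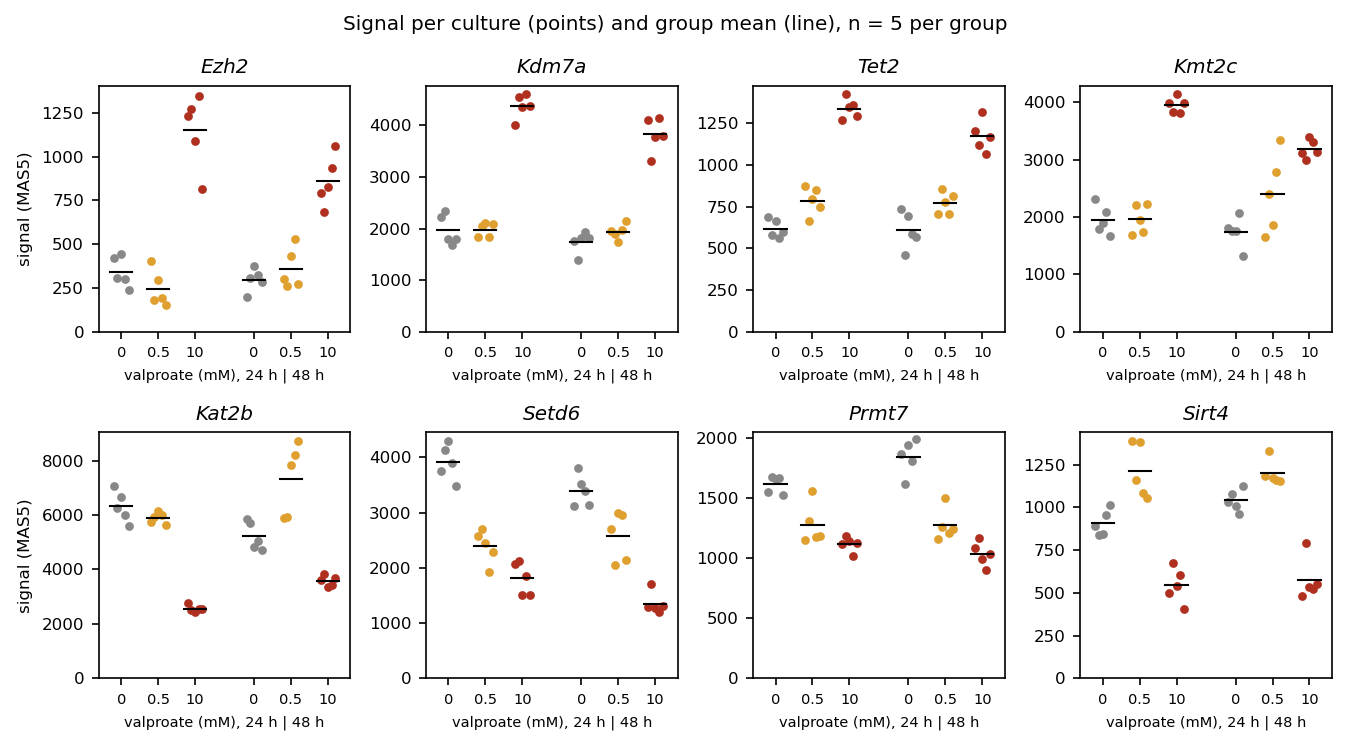
Signal of 8 members in each culture (points) with the mean of each group (line), at 0, 0.5 and 10 mM valproate, with 24 h on the left and 48 h on the right of each panel (n = 5 per group, linear axis from 0). The 10 mM points of Ezh2, Kdm7a, Tet2 and Kmt2c lie above, and those of Kat2b, Setd6, Prmt7 and Sirt4 below, all water points of the same time.

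Among the arginine methyltransferases, 1 of 6 tested rose and 3 fell at 24 h, and 0 rose and 3 fell at 48 h. The 3 that fell at both times were Prmt2, Prmt3 and Prmt7. Prmt7, which only monomethylates arginine, had signals of 1118, 1181, 1138, 1018 and 1128 at 10 mM, against 1545, 1675, 1660, 1663 and 1523 in water at 24 h. At 48 h its signals were 1082, 1164, 995, 904 and 1037 at 10 mM, against 1866, 1612, 1939, 1808 and 1989 in water. The groups were apart at both times, with changes of -0.53 ± 0.09 and -0.82 ± 0.09. Prmt3, which methylates a protein of the small ribosomal subunit, had signals of 347 to 697 at 10 mM and 616 to 1622 in water at 24 h. It fell by 1.03 ± 0.22 (adjusted p 0.000216) at 24 h and 0.88 ± 0.22 (0.0015) at 48 h, although the groups overlapped at both times. Prmt2 fell by 0.70 ± 0.14 at 24 h and 0.38 ± 0.14 at 48 h. Prmt6, which methylates histone H3 near its start, rose at 24 h by 0.64 ± 0.24 (adjusted p 0.024) and had a change of 0.25 ± 0.24 at 48 h.

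Among the lysine demethylases, 6 of 14 tested rose and 4 fell at 24 h, and 5 rose and 1 fell at 48 h. Kdm7a, a JmjC demethylase of silencing marks on histone H3, had signals of 4006, 4541, 4347, 4598 and 4381 at 10 mM, against 2233, 2329, 1798, 1675 and 1804 in water at 24 h. At 48 h its signals were 4106, 3311, 3768, 4134 and 3789 at 10 mM, against 1754, 1385, 1815, 1938 and 1826 in water. The arrays were fully apart at both times, with changes of 1.16 ± 0.09 (adjusted p 3.97e-12) and 1.13 ± 0.09 (1.15e-11). Kdm4c, which removes trimethyl marks of heterochromatin, had signals of 444 to 705 at 10 mM and 165 to 274 in water at 24 h. It rose by 1.28 ± 0.21 at 24 h and 0.88 ± 0.21 at 48 h.

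The Kdm5 enzymes remove activating methyl groups from histone H3, and their members went different ways. Kdm5a had signals of 5525 to 6288 at 10 mM, with a median of 5926, and 2303 to 4780 in water, with a median of 3243, at 24 h. It rose by 0.83 ± 0.13 at 24 h and 0.88 ± 0.13 at 48 h. Its 3 other tested probesets had changes of the same sign at 24 h, between 0.20 and 0.53, and were not called. Kdm5c fell by 0.85 ± 0.16 at 24 h (adjusted p 2.67e-05), with signals of 394 to 535 at 10 mM and 668 to 946 in water, and its change of -0.37 ± 0.16 at 48 h was not called (adjusted p 0.057). Kdm5b rose at 48 h by 0.36 ± 0.15 (adjusted p 0.0497). Kdm3a, which removes silencing marks and is induced by low oxygen, rose at 24 h by 0.68 ± 0.11, and its change of 0.25 ± 0.11 at 48 h was not called (adjusted p 0.0543). Kdm2b rose at both times, by 0.44 ± 0.14 and 0.40 ± 0.14, while its paralogue Kdm2a fell by 0.22 ± 0.08 and 0.27 ± 0.08. The flavin-dependent Kdm1a, known as LSD1, had signals of 2200 to 2438 at 10 mM and 1793 to 2759 in water at 24 h, and was not called at either time (0.15 ± 0.11 and 0.15 ± 0.11). Without the 3 arrays of high actin ratio its change at 24 h was 0.25 and was called. Kdm4b and Kdm6b were also not called at either time.

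Of 5 tested sirtuins, 3 rose and 1 fell at each time. Sirt2, a mainly cytoplasmic deacetylase, had signals of 3301 to 3840 at 10 mM and 1668 to 3259 in water at 24 h, and rose by 0.69 ± 0.14 and 0.83 ± 0.14. Sirt7, a nucleolar sirtuin, rose by 0.62 ± 0.10 and 0.37 ± 0.10. Sirt3, the main deacetylase of mitochondria, rose by 0.25 ± 0.08 and 0.26 ± 0.08. The other mitochondrial sirtuin called at 10 mM went the opposite way. Sirt4 had signals of 502, 676, 542, 602 and 407 at 10 mM, against 893, 841, 844, 955 and 1012 in water at 24 h. At 48 h its signals were 481, 791, 533, 521 and 551 at 10 mM, against 1033, 1077, 1008, 964 and 1125 in water. The arrays did not overlap at either time. Sirt4 fell by 0.74 ± 0.12 and 0.86 ± 0.12 on the log2 scale, and the call at 24 h was lost for the mean of its 2 tested probesets (-0.31).

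Both tested DNA hydroxylases rose at both times. Tet2 had signals of 1270, 1426, 1349, 1359 and 1294 at 10 mM, against 686, 581, 665, 565 and 599 in water at 24 h. At 48 h its signals were 1202, 1121, 1317, 1068 and 1170 at 10 mM, against 737, 460, 693, 587 and 567 in water. Its lowest 10 mM array stood above its highest water array at both times, and it rose by 1.10 ± 0.11 (adjusted p 4.59e-10) and 0.95 ± 0.11 (1.48e-08). Tet3 had signals of 784 to 1196 at 10 mM and 323 to 677 in water at 24 h, and rose by 0.91 ± 0.18 and 0.92 ± 0.18. The rise of Tet3 at 48 h was not called for the mean of its 2 probesets (0.32). Of the DNA methyltransferases, Dnmt1, which copies methylation onto new DNA strands, had signals of 588 to 774 at 10 mM and 243 to 426 in water at 48 h. It rose by 1.03 ± 0.31 at 48 h (adjusted p 0.00681), and its change of 0.55 ± 0.31 at 24 h was not called (adjusted p 0.143). Dnmt3a, which methylates DNA de novo, was not called at either time (0.30 ± 0.25 and 0.07 ± 0.25).

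The members' changes at 10 mM were alike at 24 h and 48 h, which share no arrays. Across the 56 members the changes correlated with Pearson's r of 0.859 (Spearman's rho 0.864), beside 0.838 across all 11604 tested genes. Genes are not independent replicates, and these values are descriptions. There were 14 members of 56 higher and 10 lower at both times, and 0 called in opposite directions. Of all 11604 tested genes, 2561 were higher and 2062 lower at both times, and 71 were called in opposite directions. At 0.5 mM the correlation was 0.414 for the members and 0.227 for all genes, with 4 members higher and 6 lower at both times and 0 opposite. Of all tested genes, 468 were higher and 563 lower at both times at this dose, and 178 were opposite.

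**Figure D3:**
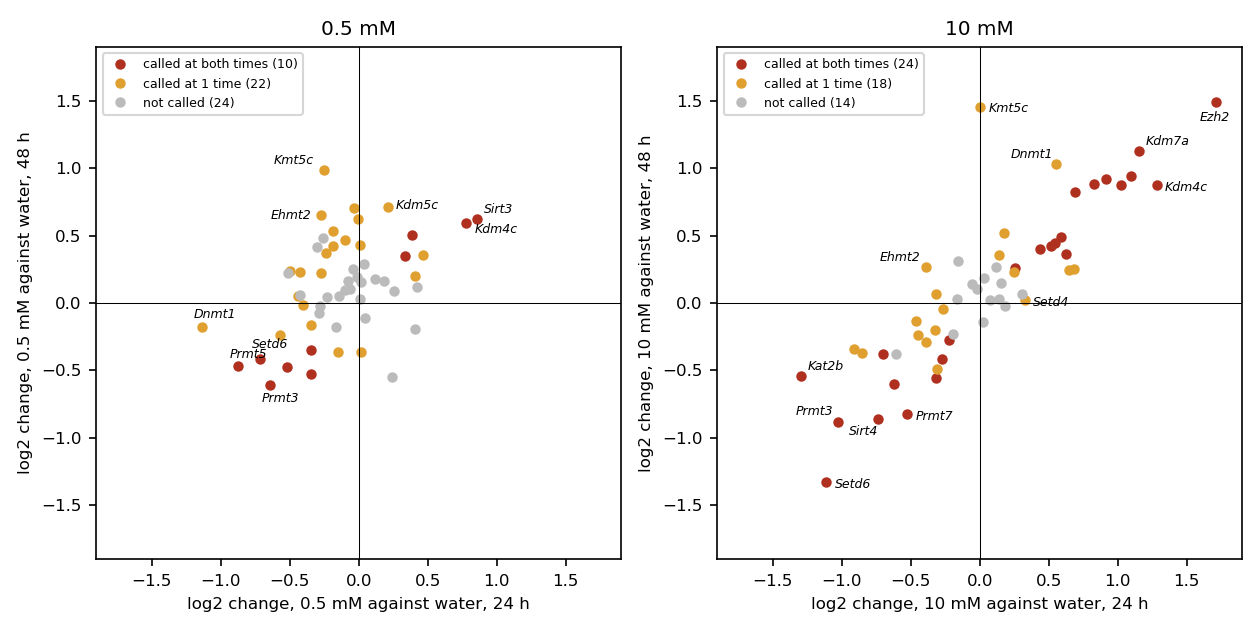
Log2 change of (signal + 16) of each tested member against water at 24 h (horizontal) and 48 h (vertical), for 0.5 mM on the left and 10 mM on the right. Colours give whether a member was called at both times, at 1 time or at neither. At 10 mM, 24 members are called at both times and all lie in the lower left or upper right part of the plot.

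The fits also tested how the 10 mM effect at 48 h differed from that at 24 h. It differed for 3 members, 2 higher and 1 lower, where 6.63% and 6.20% of all tested genes did. For Kat2b the difference was 0.75 ± 0.13 (adjusted p 0.000117), with changes of -0.54 at 48 h and -1.29 at 24 h, so the fall was smaller at the later time. For Ehmt2 it was 0.66 ± 0.21 (adjusted p 0.043), with 0.27 at 48 h and -0.39 at 24 h. This call was lost with no filter, with no trend and with the actin ratio as a covariate. Leaving out 1 array at a time gave 1 to 3 higher and 0 to 2 lower members. For Setd4 it was -0.31 ± 0.09 (adjusted p 0.0296), with 0.02 at 48 h and 0.33 at 24 h.

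For close relatives, the log2 signal difference between the 2 genes of a pair was taken in each culture and compared between 10 mM and water. Of 16 paralogue pairs, 12 differed at 24 h and 11 at 48 h (exact two-sided permutation test over 252 arrangements, adjusted over 32 comparisons, smallest possible p 0.00794). This count is a description of these pairs. Many genes were called at 10 mM (31.1% higher and 25% lower at 24 h), and other pairs of genes were not examined. The Ezh2 minus Ezh1 difference was higher at 10 mM by 2.16 at 24 h and 1.72 at 48 h (adjusted p 0.0134 at each time). For Kmt2c minus Kmt2d the shift was 1.48 and 1.01, for Kdm5a minus Kdm5c 1.68 and 1.25, and for Kdm4c minus Kdm4b 1.10 and 0.90, each with an adjusted p of 0.0134 and no overlap between the groups. Kdm2a minus Kdm2b shifted by -0.66 and -0.67 (adjusted p 0.0134), where the sign depends on which gene is written first. Kmt5b minus Kmt5c shifted by -2.06 at 48 h (adjusted p 0.0134) and was not called at 24 h (-0.62, adjusted p 0.193). Tet2 minus Tet3 was not called (0.18 and 0.03, adjusted p 0.508 and 0.852), nor was Kdm1a minus Kdm1b (-0.10 and -0.09, adjusted p 0.508 and 0.469). With all probesets of a gene averaged, 5 of the 23 calls were lost, which were Ep300 minus Crebbp and Kdm5b minus Kdm5c at 48 h and Kat6a minus Kat6b, Kdm5a minus Kdm5b and Kmt2a minus Kmt2b at 24 h.

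**Figure D4:**
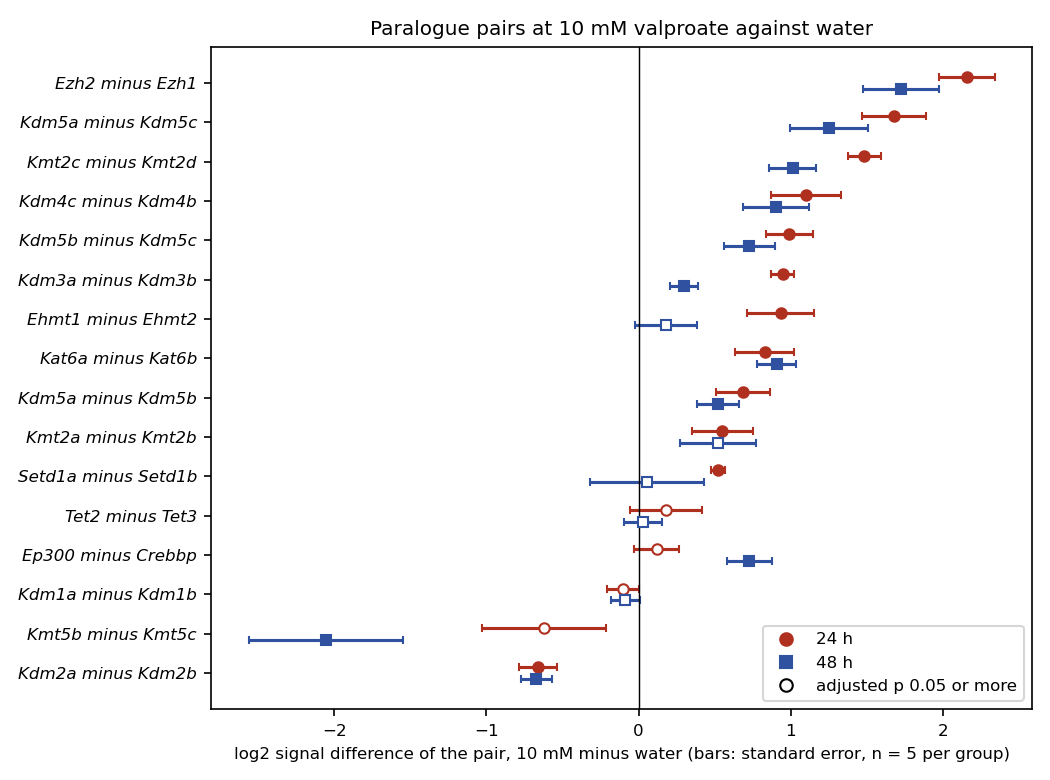
Shift in the log2 signal difference between the genes of 16 paralogue pairs, 10 mM valproate minus water, at 24 h (red circles) and 48 h (blue squares), with bars for the standard error (n = 5 per group). Filled symbols have an adjusted p under 0.05, which holds for 12 pairs at 24 h and 11 at 48 h, and Ezh2 minus Ezh1 lies farthest right at both times.

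At 0.5 mM fewer members were called, and more of them fell at 24 h. At 24 h, 6 members rose and 14 fell (10.7% and 25% of 56), where 12.7% and 16.1% of all tested genes did. At 48 h, 14 rose and 8 fell (25% and 14.3%), where 11.9% and 14.1% of all tested genes did. The arrays did not overlap for 3 members with higher and 8 with lower signals at 24 h (8.89% and 11% of all genes), and for 7 and 3 at 48 h (6.92% and 8.17%). Without the 3 arrays of high actin ratio, 6 rose and 12 fell at 24 h, and 9 rose and 6 fell at 48 h. In that fit 13% of all tested genes rose and 15.3% fell at 24 h, and 8.47% rose and 12% fell at 48 h. Without the first 0.5 mM array 3 members rose at 24 h, and without the fourth 0.5 mM array 9 rose at 48 h. Of the arrays with a high actin ratio, 2 belong to the 0.5 mM group at 48 h and 1 to water at 24 h, and the part of RNA quality in the changes at this dose was not tested beyond this and a fit with the actin ratio as a covariate.

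The member with the largest rise at 0.5 mM and 24 h was Sirt3. Its signals at 24 h were 7546, 7437, 6672, 7482 and 6517 at 0.5 mM, against 4169, 3214, 4218, 4179 and 3901 in water. At 48 h they were 5381, 5586, 4669, 5095 and 4598 at 0.5 mM, against 3600, 3269, 2922, 3209 and 3397 in water. Every 0.5 mM array lay above every water array. The rises were 0.86 ± 0.08 (adjusted p 1.16e-09) and 0.62 ± 0.08 (4.27e-07), and 10 mM lay below 0.5 mM at both times, by 0.61 ± 0.08 and 0.36 ± 0.08. Kdm4c also rose at both times (0.78 ± 0.21 and 0.60 ± 0.21), as did Kdm3a (0.39 ± 0.11 and 0.51 ± 0.11) and Tet2 (0.34 ± 0.11 and 0.35 ± 0.11). The Kdm4c call at 48 h was lost with no filter (0.60) and the Tet2 call at 24 h with quantile normalization (0.27).

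The arginine methyltransferases were again on the low side, with 0 of 6 higher and 3 lower at each time. These were Prmt3, Prmt5 and Prmt7. Prmt5, the main enzyme of symmetric arginine dimethylation, had signals of 786, 777, 1010, 872 and 710 at 0.5 mM, against 1323, 1472, 1973, 1437 and 1496 in water at 24 h. These groups did not overlap. Prmt5 fell by 0.87 ± 0.14 at 24 h (adjusted p 1.86e-05) and 0.47 ± 0.14 at 48 h (0.0124), and was not called at 10 mM. Prmt7 fell by 0.34 ± 0.09 and 0.53 ± 0.09, and Setd6 by 0.71 ± 0.12 and 0.41 ± 0.12. Setd6 had signals of 1921 to 2697 at 0.5 mM and 3478 to 4294 in water at 24 h, with no overlap. Setd6, Prmt3, Prmt7 and Kmt5a were lower than water at both doses and both times. The Prmt3 call at this dose was lost at 24 h without the 3 arrays of high actin ratio (-0.48) and at 48 h with no filter (-0.61).

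Dnmt1 had the largest fall at 0.5 mM and 24 h, with signals of 62, 393, 277, 226 and 97 at 0.5 mM, against 403, 366, 293, 498 and 499 in water. The groups overlapped through the second 0.5 mM array. Its change was -1.13 ± 0.31 at 24 h (adjusted p 0.00723) and -0.17 ± 0.31 at 48 h (0.753). Dnmt1 was higher at 10 mM than at 0.5 mM by 1.69 ± 0.31 at 24 h and 1.21 ± 0.31 at 48 h. Kat6b and Sirt4 rose at 0.5 mM and 24 h, by 0.46 ± 0.15 and 0.40 ± 0.12. Both calls were lost with the actin ratio as a covariate (0.43 and 0.35).

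At 48 h the rises at 0.5 mM included Kmt5c (0.99 ± 0.36), Kdm5c (0.71 ± 0.16), Kmt2e (0.71 ± 0.21), Ehmt2 (0.65 ± 0.15), Kdm5b (0.62 ± 0.15), Ep300 (0.53 ± 0.13) and Kat2b (0.47 ± 0.09). Kat2b had signals of 5886, 5915, 7850, 8193 and 8717 at 0.5 mM, against 5868, 5713, 4837, 5058 and 4730 in water, and the groups did not overlap. Ep300 had signals of 1813, 1944, 3083, 2729 and 3166 at 0.5 mM, against 1797, 1639, 1724, 1805 and 1586 in water. The 3 highest 0.5 mM signals of both genes were in replicates 3, 4 and 5. Replicates 3 and 4 have the high actin ratios (2.77 and 2.23, log2). Replicate 5, the highest for both genes, has a ratio of 1.74, against 1.32 and 1.05 in replicates 1 and 2. Replicate 5 stays in the fit without the 3 arrays of high actin ratio. Without the 3 arrays of high actin ratio the calls of Kmt5c (0.75), Kmt2e (0.42), Ehmt2 (0.41) and Ep300 (0.38) were lost. With all probesets of a gene averaged those of Kdm5b (0.26), Kdm5c (0.26) and Ep300 (0.23) were lost.

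Some members moved in opposite directions at the 2 doses, which share their water arrays. At 24 h, Ehmt1, Kdm1b, Setd3, Setd4 and Sirt7 fell at 0.5 mM and rose at 10 mM. The share of all tested genes with such opposite calls was not computed. Of all tested genes, 31.1% rose at 10 mM and 16.1% fell at 0.5 mM at 24 h. Setd4 signals at 24 h were 5022, 5408, 5512, 5233 and 4815 in water, 3812, 4087, 4464, 4227 and 3878 at 0.5 mM, and 6615, 6676, 6826, 6297 and 6228 at 10 mM. Kdm1b, known as LSD2, had signals of 2345 to 2907 in water, 1435 to 2305 at 0.5 mM and 3072 to 3392 at 10 mM. Setd3 had signals of 3617 to 5010 in water, 2724 to 3244 at 0.5 mM and 5103 to 6540 at 10 mM. For these 3 genes no array of a group overlapped with another group. These signals are of the brightest probeset, and the second tested probeset of Setd3 was not called at 0.5 mM and 24 h (-0.03). Ehmt1 had signals of 1066 to 1695 in water, 630 to 1183 at 0.5 mM and 1869 to 2159 at 10 mM, and Sirt7 had 2409 to 3012 in water, 1802 to 2739 at 0.5 mM and 3712 to 4269 at 10 mM. For both, the 0.5 mM arrays overlapped with water and the 10 mM arrays did not.

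In the direct comparison of 10 mM with 0.5 mM, the 5 genes were higher at 10 mM by 0.67 ± 0.07 (Setd4) to 1.11 ± 0.17 (Ehmt1) at 24 h. In all, 18 members were higher and 11 lower at 10 mM than at 0.5 mM at 24 h, against 32.9% and 26.4% of all tested genes, and 16 were higher and 18 lower at 48 h, against 30% and 23.8%. Sirt4 went the other way at 24 h, rising at 0.5 mM and falling at 10 mM, and so did Kat2b at 48 h. As given above, the Sirt4 rise was lost with the actin ratio as a covariate, and its fall for the mean of its probesets. The highest Kat2b signals at 0.5 mM and 48 h were in the arrays with the highest actin ratios of that group. Of the 37 members called at 10 mM against water at 24 h, 24 also differed from 0.5 mM in the same direction, as did 20 of 29 at 48 h. The comparisons of 10 mM with water and with 0.5 mM share their 10 mM arrays. At 48 h, 0 members fell at 0.5 mM and rose at 10 mM. For these counts the shares of all tested genes were not computed.

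**Figure D5:**
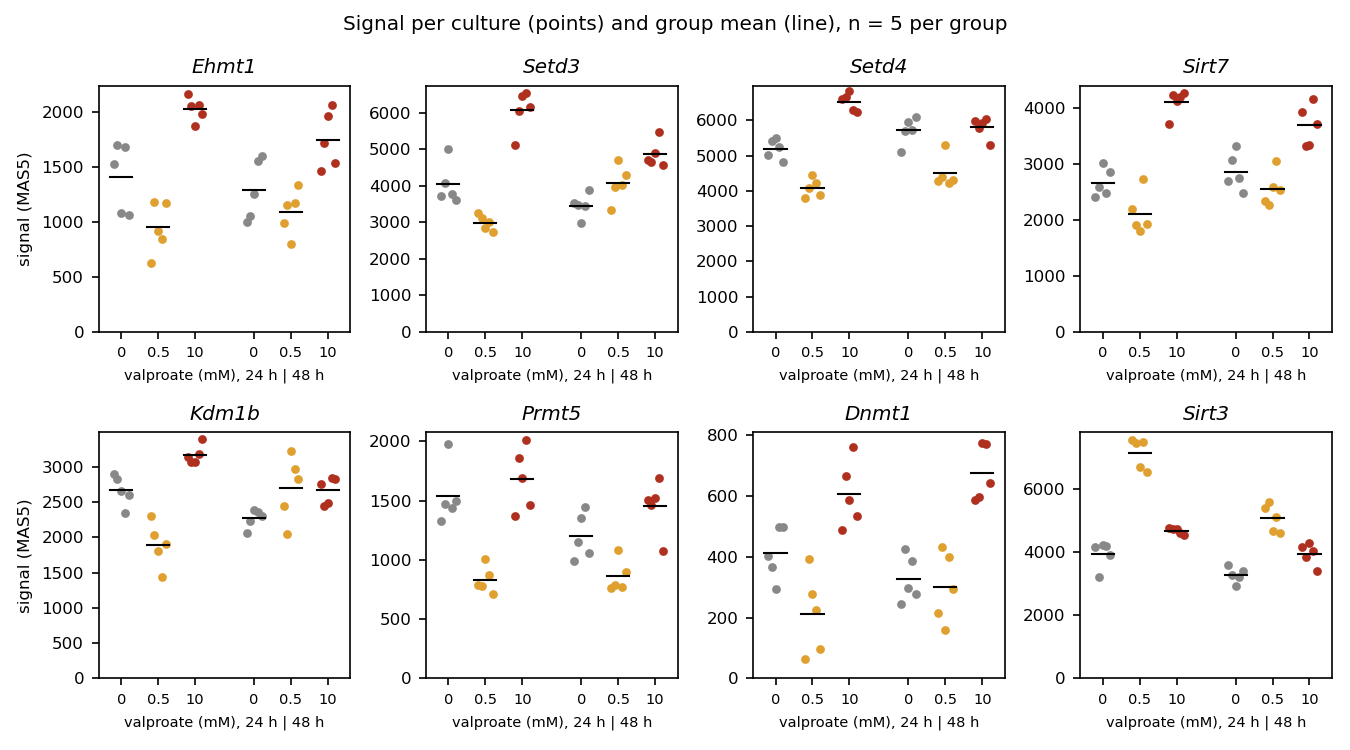
Signal of 8 members in each culture (points) with the mean of each group (line), at 0, 0.5 and 10 mM valproate, with 24 h on the left and 48 h on the right of each panel (n = 5 per group, linear axis from 0). At 24 h the 0.5 mM points of Setd3, Setd4 and Kdm1b lie below and the 10 mM points above all water points, and for Sirt3 the 0.5 mM points are the highest at both times.

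The 0.5 mM effect was higher at 48 h than at 24 h for 11 members and lower for 0, where 12% and 9.69% of all tested genes were called. The largest of these differences were those of Ehmt2 (0.93 ± 0.21, adjusted p 0.00345), Kmt2a (0.74 ± 0.26, 0.0415), Kdm1b (0.74 ± 0.15, 0.00112) and Ep300 (0.72 ± 0.18, 0.00681). Without the 3 arrays of high actin ratio 4 members were called, 3 of them among the 11, and with the actin ratio as a covariate 0 were called. Leaving out arrays also lowers the power, and the part of RNA quality in this count was not tested. Without the first 0.5 mM array of 48 h 17 members were called higher and 2 lower. For all genes 4.51% were called higher and 3.17% lower without the 3 arrays of high actin ratio.

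In water alone the members barely differed between 48 h and 24 h, with 1 higher and 2 lower, where 5.11% and 4.96% of all tested genes were called. Signals did not overlap for 1 member with higher and 2 with lower signals, against 5.52% and 4.89% of all tested genes. Sirt5, the desuccinylase of mitochondria, was higher at 48 h (0.35 ± 0.11, adjusted p 0.0416), and Sirt3 (-0.26 ± 0.08, 0.0356) and Kmt5c (-1.40 ± 0.36, 0.0133) were lower. Leaving out 1 water array at a time gave 0 to 1 higher and 1 to 5 lower members, with 5 lower without the fifth water array of 24 h. All 3 calls were lost with at least 1 alternative setting, among them the actin ratio as a covariate for Sirt5 (0.13) and Kmt5c (-1.05).

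Across all 4 comparisons with water, 8 of the 56 tested members were never called. These were Dnmt3a, Kat7, Kdm4b, Kdm6b, Kmt2a, Kmt2b, Prmt9 and Setd2, among them the enzyme that trimethylates histone H3 along transcribed genes (Setd2) and an acetyltransferase of replication origins (Kat7). The share of all tested genes never called in these 4 was not computed. By dose, 14 of 56 members were called at neither time at 10 mM, against 4008 of all 11604 tested genes. At 0.5 mM it was 24 members, against 6453 genes. The 7 members under the filter, at a mean signal of about 152, were Dnmt3b, Kat2a, Kdm4d, Prmt8, Sirt6, Suv39h2 and Tet1. Suv39h2, which trimethylates histone H3 in heterochromatin, had signals of 255, 290, 207, 135 and 216 at 10 mM, against 49, 82, 33, 112 and 62 in water at 24 h, with no overlap. In the fit with no filter its change was 1.54 ± 0.28 at 24 h (adjusted p 3.46e-05) and 0.97 ± 0.28 at 48 h (0.00754). Kat2a, the paralogue of Kat2b, had signals of 40 to 58 at 10 mM and 63 to 443 in water at 24 h, and its change in that fit was -1.43 ± 0.36 (adjusted p 0.00196). The other 5 were not called at 10 mM in that fit.

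For 19 members with several tested probesets, 0 had probesets called in opposite directions in any comparison with water. At 10 mM and 24 h, 12 of them were called by their brightest probeset. For 8 of the 12 every other probeset had the same sign, and for 3 another probeset was called the same way. Ezh2, Setd3 and Kdm2a are those 3. Members whose second probeset changed with the other sign without a call included Kmt2d (0.39), Kat6a (-0.13), Sirt4 (0.11) and Ezh1 (0.05).

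Partners and cofactor enzymes of the members were described from gene lists that the members do not belong to. Their counts stand beside 31.1% of all tested genes higher and 25% lower at 24 h, and 27.6% higher and 22.3% lower at 48 h, and the lists were not tested against other genes. At 10 mM, 10 of 19 tested partners of the Polycomb complexes rose and 3 fell at 24 h, and 8 rose and 2 fell at 48 h. Rnf2, the ubiquitin ligase of PRC1, rose by 1.21 ± 0.09 and 1.29 ± 0.09, and the PRC1 reader Cbx2 rose at 24 h (1.74 ± 0.49). Phf19, an accessory subunit of PRC2, fell by 0.80 ± 0.29 and 1.24 ± 0.29. Of 13 partners of the COMPASS and MLL complexes, 7 rose and 2 fell at 24 h, and 5 rose and 2 fell at 48 h. The core subunit Dpy30 rose by 0.99 ± 0.09 and 0.64 ± 0.09, and Hcfc1, a cell-cycle cofactor, fell by 1.59 ± 0.13 and 0.60 ± 0.13. Of 28 partners of acetyltransferase complexes, 7 rose and 11 fell at 24 h, and 7 rose and 9 fell at 48 h. The reader subunit Ing4 rose by 1.25 ± 0.12 and 0.91 ± 0.12. Ing1, which this list also holds, is a subunit of histone deacetylase complexes, and rose by 1.64 ± 0.10 and 1.05 ± 0.10.

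Enzymes of the same kinds with other names gave 8 higher and 1 lower of 11 acetyltransferases and coactivators at 24 h, and 7 and 0 at 48 h. Hat1, which acetylates new histone H4, rose by 1.18 ± 0.11 and 0.88 ± 0.11. Other methyltransferases, a list that also holds Hat1, gave 5 higher and 3 lower of 18 at 24 h, and 5 and 6 at 48 h. Dot1l, which methylates the globular part of histone H3, rose by 1.01 ± 0.20 and 0.76 ± 0.20. Other demethylases and JmjC proteins gave 5 higher and 2 lower of 13 at each time, with Phf8 higher (0.77 ± 0.11 at 24 h) and Riox2 lower (-1.20 ± 0.12).

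The classical histone deacetylases, the family that holds the targets of valproate, gave 5 higher and 1 lower of 9 tested at 24 h, and 5 and 3 at 48 h. Hdac1 rose by 2.27 ± 0.25 and 1.54 ± 0.25, and Hdac10 fell by 1.22 ± 0.23 and 0.85 ± 0.23. Of 17 partners of LSD1 and of DNA methyltransferases, 7 rose and 4 fell at 24 h, and 8 rose and 6 fell at 48 h. Uhrf1, which brings Dnmt1 to newly copied DNA, rose by 2.36 ± 0.24 and 1.23 ± 0.24. Of 22 readers of acetylated histones, 8 rose and 5 fell at 24 h, and 7 rose and 6 fell at 48 h, with Brd9 among the lower (-1.49 ± 0.11 at 24 h).

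Genes that make or use acetyl-CoA, S-adenosylmethionine, oxoglutarate and NAD gave 5 higher and 15 lower of 25 at 24 h, and 5 and 16 at 48 h. Over all tested genes 31.1% and 25% were called at 24 h, and 27.6% and 22.3% at 48 h. The list also holds enzymes that use these cofactors up, such as Ogdh for oxoglutarate, so its counts do not measure supply. The median change of the list was -0.52 at 24 h and -0.40 at 48 h, beside 0.07 and 0.03 over all tested genes. Mat1a, the liver enzyme that makes S-adenosylmethionine, fell by 2.59 ± 0.12 and 1.60 ± 0.12. Acly, which makes cytosolic acetyl-CoA from citrate, fell by 1.65 ± 0.11 and 1.93 ± 0.11. Genes of DNA replication and cell division, given beside Ezh2 and Dnmt1, gave 14 higher and 1 lower of 21 at each time. Ccne2, a cyclin of S phase entry, rose by 3.05 ± 0.14 and 2.82 ± 0.14. Whether the rises of Ezh2 and Dnmt1 go with those of the replication genes was not tested.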

How the data were processed

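Total RNA of 30 cultures in 6 groups was measured on 1 array each. The authors deposited linear signal intensity per probeset, made with MAS5 per the submitters' processing notes. Scaling to a common level hides a shift of most genes in 1 direction. Each signal plus 16 was put on the log2 scale here, which shrinks changes of dim probesets. Of 31099 probesets, 57 controls were left out, and 21729 with a mean of at least 7.39 (log2), the 30th percentile, were tested. The platform table named 1 gene for 20826 probesets, several for 436, and no gene for 9780. The brightest probeset stood for its gene. All groups entered 1 fit in limma 3.58.1 under R 4.3.3 (eBayes with trend, 24 residual degrees of freedom, two-sided), which was tested on simulated data. The number of arrays limits the precision. Members and gene lists were chosen with earlier results of these data known. Signals were given among the 8 largest rises and falls called in each comparison with water and the 4 largest differences between the times, and for Ep300, Crebbp, Ezh1, Ezh2, Ehmt1, Ehmt2, Dnmt1, Dnmt3a and Kdm1a where they bear on a result. At most 4 called genes were named from each other list. Signals of Setd3, Sirt7, Kmt2d, Suv39h2 and Kat2a were added after their values were seen. Alternatives were pseudocounts of 1 and 64, quantile normalization, no filter, no trend, averaged probesets, a block for each run of 6 arrays, the actin ratio as a covariate, and leaving out 3 arrays of high actin ratio or each array in turn. Promoters came from RefSeq. Plots used matplotlib 3.10.9.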

Additional observations from a re-analysis of the deposited data

Results flagged for a closer look

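In 12 of the 228 groups of 5 arrays examined (5.26%), 1 array stood apart from the other 4, and chance does so in about 1 in 20 groups. At 10 mM and 48 h, replicate 2 was high for Setd6 (1707 against a median of 1289) and for Sirt4 (791 against 533), yet both arrays lay below all water arrays. At 0.5 mM, Kdm3a was low in replicate 5 at 24 h (1658 against 2238), Setd4 was high in replicate 3 at 48 h (5313 against 4314) and Sirt4 was high in replicate 2 at 48 h (1330 against 1169). In water at 24 h, replicate 3 was high for Ezh1 (3097 against 2497) and low for Sirt5 (3445 against 4903), replicate 4 was low for Kat6b (477 against 700) and for Kdm5c (668 against 915), and replicate 2 was low for Sirt3 (3214 against 4169). In water at 48 h, Sirt2 was low in replicate 1 (1630 against 2030) and Kmt2e in replicate 5 (916 against 1741). Replicate 3 of water at 24 h is 1 of the 3 arrays of high actin ratio.

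The effect of 10 mM differed between 48 h and 24 h by 0.75 for Kat2b, 0.66 for Ehmt2 and -0.31 for Setd4, and that of 0.5 mM by 0.93 for Ehmt2, 0.74 for Kmt2a, 0.74 for Kdm1b and 0.72 for Ep300 (limma interaction terms). Beside the calls at 0.5 mM stands the actin ratio, as given above.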

How the results depend on the processing

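No member's called change reversed its sign under any alternative run. Most counts stayed within 1.5 times their value. The exceptions were the following. At 0.5 mM and 48 h, 14 members higher became 9 with a gene's probesets averaged, 9 with the actin ratio as a covariate and 9 without the 3 arrays of high actin ratio. The 11 members whose 0.5 mM effect was higher at 48 h became 6, 0 and 4 under the same settings, and the 0 lower became 1 with quantile normalization and 1 with the block of 6 arrays. For the 10 mM effect, 2 higher became 1 with no filter, 1 with no trend and 1 with the covariate, and 1 lower became 2 with quantile normalization and 2 without the 3 arrays. In water, 1 higher became 0 with no filter, with no trend and with the covariate, and 2 lower became 1 with no trend, 4 with the block and 1 with the covariate. Leaving out each array in turn gave 16 to 18 higher and 13 to 20 lower at 10 mM and 24 h, 16 to 18 and 9 to 12 at 10 mM and 48 h, 3 to 6 and 12 to 14 at 0.5 mM and 24 h, and 9 to 17 and 7 to 8 at 0.5 mM and 48 h. Between 10 mM and 0.5 mM it gave 17 to 19 and 9 to 12 at 24 h, and 15 to 18 and 14 to 20 at 48 h. Between the times it gave 1 to 3 and 0 to 2 for 10 mM, 8 to 17 and 0 to 2 for 0.5 mM, and 0 to 1 and 1 to 5 in water. Causes not shown by the construction of a setting were not tested. Quantile normalization moved the median change of all probesets at 10 mM and 24 h to -0.01, against 0.10 as deposited. The labels give no replicate numbers, but each run of 6 array numbers in the titles held 1 array of every group, and with these runs as a block Ep300 at 10 mM and 48 h was also called.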
